A study of Mus musculus with 18 samples.

Results

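Actb, Actg1, Tpm1, Tpm4, Vim, Myh9, Myh14, Acta2, Tagln and Cnn2, 10 of the 55487 genes in the files, encode actins, the proteins that bind along actin filaments, the myosin motors that pull on them, and vimentin. They were chosen by a rule that used measured values, the higher Actg1 and lower Myh14 of Csn8AKO brown fat, with the other 8 genes added as their relatives. The genotype contrast in brown adipose tissue (BAT) is therefore given for the members as a description without a test, whereas subcutaneous white adipose tissue (sWAT, labelled SF) was not used by the rule and was tested. The 18 libraries, each from 1 male mouse, comprised sWAT at 12 weeks (4 Ctrl, 4 Csn8AKO) and BAT at 4 weeks (5 Ctrl, 5 Csn8AKO). Ctrl mice (labelled WT) were Csn8 f/f littermates, so both groups carried the floxed allele, and Csn8AKO mice (labelled KO) carried Adipoq-Cre in addition, which removes exons 4 to 6 of Csn8 in adipocytes. All mice ate chow and were fasted for 4 h before tissue was taken. Csn8, listed as Cops8, encodes a subunit of the COP9 signalosome, which removes NEDD8 from cullin-RING ubiquitin ligases. Whole tissue was sequenced, so vessels, immune cells and fibroblasts, in which Adipoq-Cre is not active, also gave RNA, and fewer cells of a type cannot be told apart from less RNA per cell.

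Actin monomers assemble into filaments, tropomyosins lie along the filaments and set which partners can bind, and bipolar filaments of myosin II slide them past each other to give tension. Mammals have a pair of cytoplasmic actins, beta (Actb) and gamma (Actg1), and muscle forms such as the smooth muscle actin Acta2. The non-muscle myosin II motors are built on the heavy chains Myh9, Myh10 and Myh14. Free actin monomers hold back the MRTF coactivators of SRF, a transcription factor that binds CArG boxes in many genes of this kind, so actin assembly is coupled to the transcription of actin and contractile genes. In adipocytes cortical actin supports insulin-stimulated glucose uptake, and actin remodelling goes with lipid filling and, in brown adipocytes, with a contractile response to adrenergic stimuli.

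The promoters of Actg1 and Cnn2 are printed because they were the searched members' promoters with an exact match to the CArG box. That of Myh14 is printed because it belongs to the member with the largest difference between genotypes. Sequences are from RefSeq (GRCm38.p6), read 5′ to 3′ on the strand of the gene up to the base before the gene model of the files, and positions are counted from the RefSeq start. Of the 10 members, 8 had an entry of 250 bases upstream, and Actb and Tagln had none and were not searched. Both strands were searched for the CArG box in its exact form, CCWWWWWWGG where W is A or T, and for CCAAT. These motifs were chosen after the sequences were seen. CArG boxes that depart from this form were not searched, so a promoter without a match, such as that of Acta2, may still hold one. Actg1 (chr11:120348543-120348745, minus strand) holds a CArG box that starts at -90, in capitals, and Cnn2 (chr10:79988350-79988583, plus strand) holds one at -56, in capitals. Myh14 (chr7:44670844-44671093, minus strand) holds no exact CArG box but 4 CCAAT motifs, read here as ATTGG and printed in capitals, at -238, -138, -108 and -53. Actg1 holds a CCAAT motif at -120 and Cnn2 one at -30, both left in lower case. Tpm1, Vim and Myh9 hold CCAAT motifs too, while Tpm4 and Acta2 hold none.
Actg1: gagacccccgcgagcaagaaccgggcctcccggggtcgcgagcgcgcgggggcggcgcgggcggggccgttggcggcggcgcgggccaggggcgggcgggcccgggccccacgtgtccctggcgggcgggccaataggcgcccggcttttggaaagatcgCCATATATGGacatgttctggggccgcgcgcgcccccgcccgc
Cnn2: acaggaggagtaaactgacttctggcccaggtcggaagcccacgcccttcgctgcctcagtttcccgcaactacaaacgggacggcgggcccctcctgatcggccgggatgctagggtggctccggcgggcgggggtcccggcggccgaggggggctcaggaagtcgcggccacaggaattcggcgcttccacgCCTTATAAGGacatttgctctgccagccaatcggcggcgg
Myh14: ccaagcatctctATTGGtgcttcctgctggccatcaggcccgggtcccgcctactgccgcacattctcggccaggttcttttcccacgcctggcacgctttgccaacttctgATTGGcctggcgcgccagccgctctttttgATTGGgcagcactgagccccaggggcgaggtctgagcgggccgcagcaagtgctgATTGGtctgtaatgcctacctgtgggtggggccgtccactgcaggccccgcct
Among 32851 RefSeq promoters of the same length, 1.47% hold a CArG box of this exact form. At least 4 CCAAT motifs are held by 0.84%, while 33.8% hold at least 1. The match to a motif is a description of the sequence, and no binding was measured.

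Library totals were 15835721 to 23109603 counted reads in sWAT and 44065520 to 66719937 in Ctrl BAT. In BAT the shallower Csn8AKO libraries, replicates 2, 3 and 5, had 30099221, 27744949 and 26658593, below every Ctrl library, and replicates 1 and 4 had 53077853 and 65359211. Levels are given as CPM, the counts of a gene scaled to the same library total after TMM correction for RNA composition within the tissue. Ribosomal RNA genes took 1.80% to 47.8% of the reads in sWAT, with the highest shares in Csn8AKO replicates 3 and 4, and 0.863% to 15.1% in BAT, with the highest share in Csn8AKO replicate 2. Cops8 (chr1:90602981-90613341) was at 33.9 to 36.2 CPM in Ctrl sWAT and 29.2 to 36.1 CPM in Csn8AKO sWAT, with a log2 fold change of -0.12 (SE 0.11, adjusted p = 0.623). In BAT it fell from 36.5 to 44.6 CPM in Ctrl libraries to 28.2 to 36.9 CPM, by 0.30 on the log2 scale (SE 0.09, adjusted p = 0.0211). The count covers the whole gene, so transcripts without the deleted exons and the Cops8 of cells without Cre are counted too. The adipocyte markers summed to 14401 to 20680.5 CPM in Ctrl sWAT, 5738 to 13456 CPM in Csn8AKO sWAT, and 12227 to 15149.6 CPM over all BAT libraries. Ucp1, the uncoupling protein that defines brown adipocytes, was at 1568 to 5243 CPM in BAT and at most 6.89 CPM in sWAT.

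In sWAT the members as a group differed little between genotypes, apart from the loss of Myh14 and a modest rise of Tpm4. With edgeR's quasi-likelihood test and Benjamini-Hochberg adjustment over 18843 genes, Tpm4 was called higher and Myh14 lower among the 10 members, where 5.31% of all genes tested were called (2.30% higher and 3.00% lower). The median log2 fold change of the members was 0.24, against 0.03 for all genes tested. The BAT values that follow are a description from which nothing is read, since the rule used that contrast. In BAT 9 of the 10 had a positive log2 fold change, as had 11286 of the 22345 genes tested. The median was 0.62, and 0.01 for all genes tested. In BAT 6 members (Actb, Actg1, Tpm4, Myh9, Acta2 and Cnn2) lay past the same threshold with higher levels and Myh14 with a lower one. For comparison, 31.9% of the 22345 genes tested in BAT were called, 16.0% higher and 15.8% lower. All 10 members passed the filter on low counts in both tissues.

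**Figure D1:**
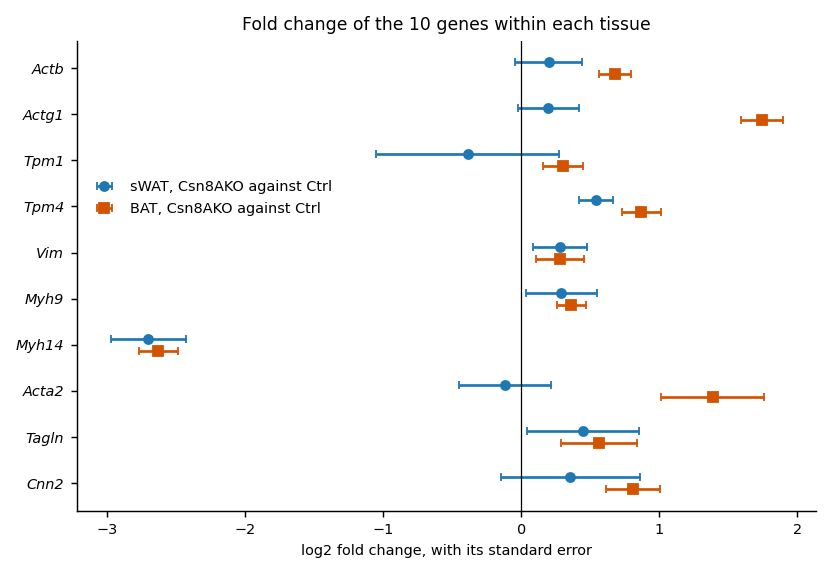
Log2 fold change of each member, Csn8AKO against Ctrl, with its standard error as bars, in sWAT (circles, 4 against 4 mice) and BAT (squares, 5 against 5 mice). Myh14 lies at -2.70 in sWAT and -2.63 in BAT, while Actg1 lies at 0.20 in sWAT and 1.74 in BAT.

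Actb (ENSMUSG00000029580, chr5:142903115-142906754), cytoplasmic beta-actin, was the most abundant member per length in every group. In sWAT it was at 3067, 2881, 2257 and 2144 CPM in Ctrl libraries and 2218, 3544, 3559 and 2545 CPM in Csn8AKO libraries. These ranges overlapped, and the log2 fold change of 0.20 (SE 0.24, adjusted p = 0.713) was smaller than its error. In BAT Actb was at 996, 1019, 928, 880.3 and 975 CPM in Ctrl libraries and 1541, 1158, 1685, 1577 and 1719 CPM in Csn8AKO libraries, a log2 fold change of 0.68 (SE 0.12) or 1.60-fold. Every Csn8AKO library lay above every Ctrl library, and Csn8AKO replicate 2 was the lowest of the 5.

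Actg1 (ENSMUSG00000062825, chr11:120345690-120348542), cytoplasmic gamma-actin, had the largest positive fold change of the members in BAT. Its BAT levels were 95.1, 94.9, 79.0, 95.8 and 79.0 CPM in Ctrl libraries and 273, 189, 348, 346 and 330.1 CPM in Csn8AKO libraries, or 88.8 ± 8.91 against 297 ± 67.8 CPM (SD, n = 5 each). The groups did not overlap and the log2 fold change was 1.74 (SE 0.15), or 3.35-fold. In sWAT, Ctrl libraries held 288, 359.7, 252 and 207 CPM and Csn8AKO libraries 228, 317, 414 and 311 CPM. These ranges overlapped, with a log2 fold change of 0.20 (SE 0.22, adjusted p = 0.683). The difference between the tissues was not tested for members, because it contains the contrast that chose them.

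Since both cytoplasmic actins are built into the same filaments, the levels per length were also compared within each library. Actg1 made up 9.71% ± 1.17 of Actb and Actg1 together in Ctrl sWAT and 9.77% ± 1.20 in Csn8AKO sWAT (SD, n = 4 each). In BAT the share was 8.54% ± 0.901 in Ctrl libraries, between 7.55% and 9.89%, and 16.2% ± 1.59 in Csn8AKO libraries, between 14.1% and 18.1% (SD, n = 5 each). The gamma form thus took a larger share in every Csn8AKO BAT library than in any Ctrl BAT library, while the sWAT groups overlapped, and these shares are given without a test. Of the Actg1 windows of 150 bases, 23.3% occur also in pseudogenes, mostly Gm12715, so reads from those stretches were not unique and the level of Actg1 may be understated, whereas no window of Actb was shared with another gene.

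**Figure D2:**
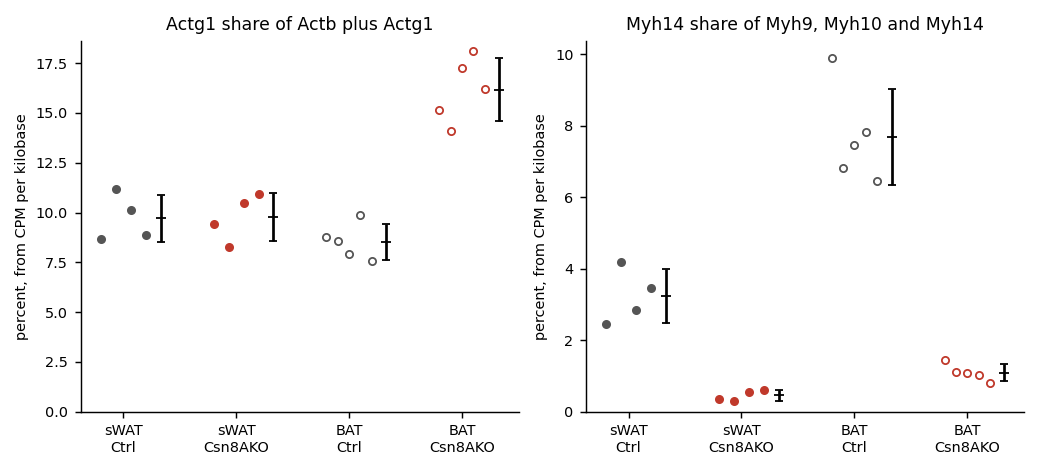
Share of Actg1 in Actb and Actg1 together and of Myh14 in Myh9, Myh10 and Myh14 together, in percent of the levels per length, for each library with the group mean and SD. The Actg1 share is 14.1% to 18.1% in Csn8AKO BAT and at most 11.2% elsewhere, and the Myh14 share is at most 1.44% in Csn8AKO libraries and at least 2.46% in Ctrl libraries.

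Myh14 (ENSMUSG00000030739, chr7:44605803-44670843) encodes the heavy chain of non-muscle myosin IIC, the least abundant of the heavy chains here. In sWAT, which the rule did not use, it fell from 17.3, 23.4, 15.2 and 18.1 CPM in Ctrl libraries to 1.57, 2.81, 3.31 and 3.74 CPM in Csn8AKO libraries. The lowest Ctrl library stood far above the highest Csn8AKO library, the log2 fold change was -2.70 (SE 0.27, adjusted p = 0.00124), and the level was 6.51-fold lower. These levels rest on 257 to 462 counts in Ctrl libraries and 34 to 62 in Csn8AKO libraries. The adipocyte marker sum was lower in each of the same Csn8AKO sWAT libraries, and its part in the result was not tested. In BAT the adipocyte marker sum overlapped between genotypes, with 2 of its 8 markers called lower and 0 higher, and its part was again not tested. Myh14 was there at 32.1, 23.4, 27.4, 31.3 and 25.6 CPM in Ctrl libraries and 5.92, 3.86, 4.67, 4.35 and 3.61 CPM in Csn8AKO libraries. All 5 Csn8AKO libraries were again below all Ctrl libraries, with a log2 fold change of -2.63 (SE 0.14), 6.19-fold lower.

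Myh9 (ENSMUSG00000022443, chr15:77760587-77842175), the heavy chain of non-muscle myosin IIA, was the main heavy chain in both tissues. It was at 1108, 810.1, 779 and 758 CPM in Ctrl sWAT and 724, 1566, 948 and 984 CPM in Csn8AKO sWAT, with a log2 fold change of 0.29 (SE 0.26, adjusted p = 0.593). The highest value of each sWAT group, in Ctrl replicate 1 and Csn8AKO replicate 2, was that of the libraries with the most B and T cell marker RNA, described with Cnn2. In BAT Myh9 was at 431, 474, 527, 572 and 559 CPM in Ctrl libraries and 651, 558, 697, 673 and 718 CPM in Csn8AKO libraries, a log2 fold change of 0.36 (SE 0.11). Csn8AKO replicate 2 lay within the Ctrl range and the other 4 above it.

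Myh10, the heavy chain of non-muscle myosin IIB and not a member, was lower in Csn8AKO BAT, at 71.1 ± 7.02 against 52.6 ± 6.36 CPM (SD, n = 5 each), a log2 fold change of -0.43 (SE 0.10, adjusted p = 0.00381). In sWAT it was at 88.2, 114, 113 and 109 CPM in Ctrl libraries and 66.8, 37.3, 90.9 and 65.5 CPM in Csn8AKO libraries, and its log2 fold change of -0.70 (SE 0.23, adjusted p = 0.116) did not pass the test. Per length, Myh14 made up 3.25% ± 0.753 of the heavy chains Myh9, Myh10 and Myh14 in Ctrl sWAT and 0.457% ± 0.153 in Csn8AKO sWAT (SD, n = 4 each). In BAT its share was 7.70% ± 1.35 in Ctrl libraries and 1.09% ± 0.227 in Csn8AKO libraries (SD, n = 5 each). Myh9 took a mean of 83.7% of the heavy chains in Ctrl sWAT and 91.8% in Csn8AKO sWAT, and 78.7% in Ctrl BAT and 90.1% in Csn8AKO BAT.

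Tpm4 (ENSMUSG00000031799, chr8:72130174-72153142), a tropomyosin of stress fibres and the cell cortex, was the member that rose in sWAT. Its sWAT levels were 90.9, 75.6, 87.8 and 72.4 CPM in Ctrl libraries and 125, 121, 119 and 109 CPM in Csn8AKO libraries. The groups did not overlap, and the log2 fold change was 0.54 (SE 0.12, adjusted p = 0.035), or 1.45-fold. This call was lost when any one of Ctrl replicates 2, 3 and 4 or Csn8AKO replicates 1 and 3 was left out, with adjusted p between 0.0783 and 0.126, although the log2 fold change then stayed between 0.49 and 0.57. It was also lost when only library size was used for scaling (adjusted p = 0.796). In BAT Tpm4 was at 30.0, 30.0, 22.5, 25.3 and 26.2 CPM in Ctrl libraries and 46.2, 33.1, 49.2, 57.5 and 58.7 CPM in Csn8AKO libraries, a log2 fold change of 0.87 (SE 0.14) without overlap. Of its windows of 150 bases, 5.11% are shared with the pseudogene Gm7809.

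Tpm1 (ENSMUSG00000032366, chr9:67022590-67049406), a tropomyosin gene whose isoforms serve striated muscle, smooth muscle and non-muscle cells, did not follow Tpm4 in sWAT. It was at 57.2, 86.3, 284 and 67.9 CPM in Ctrl libraries and 53.0, 55.5, 76.2 and 195 CPM in Csn8AKO libraries, with a log2 fold change of -0.39 (SE 0.66, adjusted p = 0.805). Its highest libraries, Ctrl replicate 3 and Csn8AKO replicate 4, were also those with the most skeletal muscle marker RNA, 2709.9 and 1579 CPM in sum over 12 markers, against 30.1 to 524 CPM in the other sWAT libraries. Without Ctrl replicate 3 the log2 fold change was 0.42, and without both of these libraries it was -0.21. In BAT Tpm1 was at 54.1, 51.4, 36.7, 40.3 and 46.6 CPM in Ctrl libraries and 51.9, 38.9, 62.3, 59.4 and 69.8 CPM in Csn8AKO libraries, overlapping groups with a log2 fold change of 0.30 (SE 0.15).

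**Figure D3:**
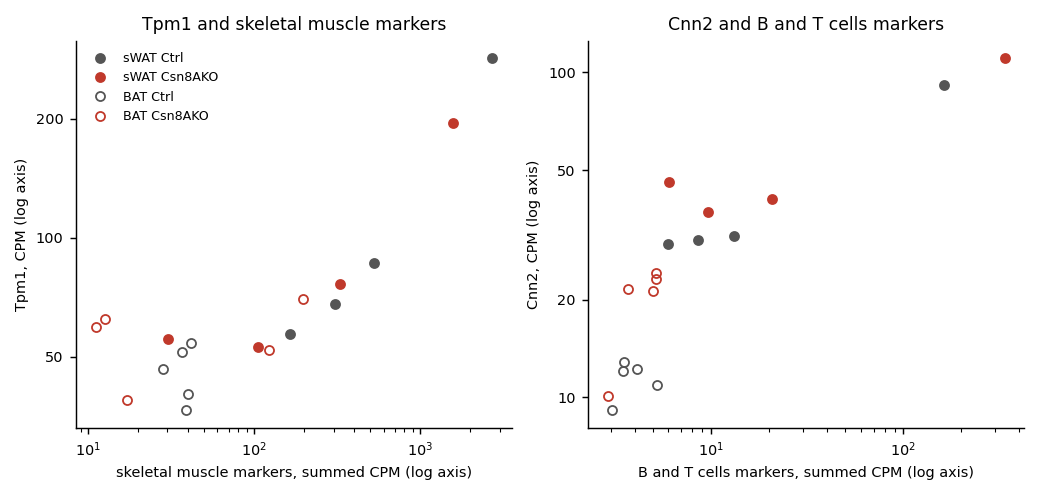
Tpm1 against the summed skeletal muscle markers and Cnn2 against the summed B and T cell markers, 1 point per library, CPM on log axes. The highest Tpm1 values, 284 and 195 CPM, lie at muscle marker sums of 2709.9 and 1579 CPM, and the highest Cnn2 values, 91.3 and 110.3 CPM, at lymphocyte marker sums of 163 and 336 CPM.

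Vim (ENSMUSG00000026728, chr2:13573927-13582826) encodes vimentin, the intermediate filament protein of fibroblasts, endothelium and leukocytes that also cages lipid droplets. In sWAT it was at 921, 1294, 1002 and 949 CPM in Ctrl libraries and 1161, 1108, 1459.7 and 1331 CPM in Csn8AKO libraries, with a log2 fold change of 0.28 (SE 0.19, adjusted p = 0.477). In BAT it was at 450.2, 440.1, 608, 599 and 315 CPM in Ctrl libraries and 578, 449.7, 566, 576 and 761 CPM in Csn8AKO libraries, again with a log2 fold change of 0.28 (SE 0.18). The genotypes overlapped in both tissues. In the same libraries the fibroblast and progenitor marker sum was 1034 to 1774 CPM in Ctrl BAT and 2738 to 4715 CPM in Csn8AKO BAT, with 8 of 8 markers called higher, and the part of these cells in the level of Vim was not tested.

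Acta2 (ENSMUSG00000035783, chr19:34241090-34255590) encodes the alpha-actin of smooth muscle and of myofibroblasts. In BAT it was at 17.0, 38.5, 20.0, 28.5 and 51.4 CPM in Ctrl libraries and 62.2, 41.6, 88.6, 96.0 and 119 CPM in Csn8AKO libraries, a log2 fold change of 1.39 (SE 0.37). The groups overlapped by Csn8AKO replicate 2 alone, which lay below Ctrl replicate 5. In sWAT it was at 27.3, 80.5, 62.1 and 54.4 CPM in Ctrl libraries and 35.0, 45.6, 48.1 and 77.9 CPM in Csn8AKO libraries, with a log2 fold change of -0.12 (SE 0.33, adjusted p = 0.889). That sign turned to 0.10 without Ctrl replicate 2 and to 0.03 without Csn8AKO replicate 1. The summed smooth muscle and pericyte markers, of which Myh11, Cnn1 and Lmod1 are themselves contractile genes, were at 888 to 1011 CPM in Ctrl BAT and 841 to 1092 CPM in Csn8AKO BAT, with 5 of 8 called higher and 1 lower.

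Cnn2 (ENSMUSG00000004665, chr10:79988584-79996062), the calponin of non-muscle cells and leukocytes, was at 10.9, 12.2, 9.15, 12.9 and 12.0 CPM in Ctrl BAT and 23.1, 10.1, 21.2, 21.5 and 24.1 CPM in Csn8AKO BAT. 4 of the 5 Csn8AKO libraries lay above the Ctrl range and replicate 2 within it, with a log2 fold change of 0.81 (SE 0.19). In sWAT it was at 91.3, 29.7, 30.4 and 31.4 CPM in Ctrl libraries and 40.7, 110.3, 45.9 and 37.1 CPM in Csn8AKO libraries, with a log2 fold change of 0.36 (SE 0.51, adjusted p = 0.757). The high libraries, Ctrl replicate 1 and Csn8AKO replicate 2, held 163 and 336 CPM of B and T cell markers, against 5.98 to 20.8 CPM in the other sWAT libraries. Without these 2 libraries the log2 fold change was 0.44 (adjusted p = 0.0632), and without Csn8AKO replicate 2 alone it was -0.15. In BAT the same markers summed to 2.92 to 5.22 CPM in every library, while macrophage markers rose from 72.2 to 107 CPM to 255 to 333 CPM, with 8 of 9 called, and their part in the BAT level of Cnn2 was not tested.

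Tagln (ENSMUSG00000032085, chr9:45929619-45936058), transgelin of smooth muscle, was near the limit of these libraries, with 10 to 62 counts each. It was at 1.67, 0.608, 0.829 and 0.519 CPM in Ctrl sWAT and 1.06, 1.22, 1.38 and 1.35 CPM in Csn8AKO sWAT, with a log2 fold change of 0.45 (SE 0.41, adjusted p = 0.6). In BAT it was at 0.439, 0.474, 0.661, 0.498 and 0.739 CPM in Ctrl libraries and 0.607, 0.512, 1.03, 0.848 and 1.20 CPM in Csn8AKO libraries, a log2 fold change of 0.56 (SE 0.28). Both comparisons overlapped. Of its 1988 exonic bases, 67.86% are also covered by Pcsk7 or Gm48529 on the opposite strand. Reads there count for neither gene unless strand is used, and the level of Tagln is therefore uncertain.

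**Figure D4:**
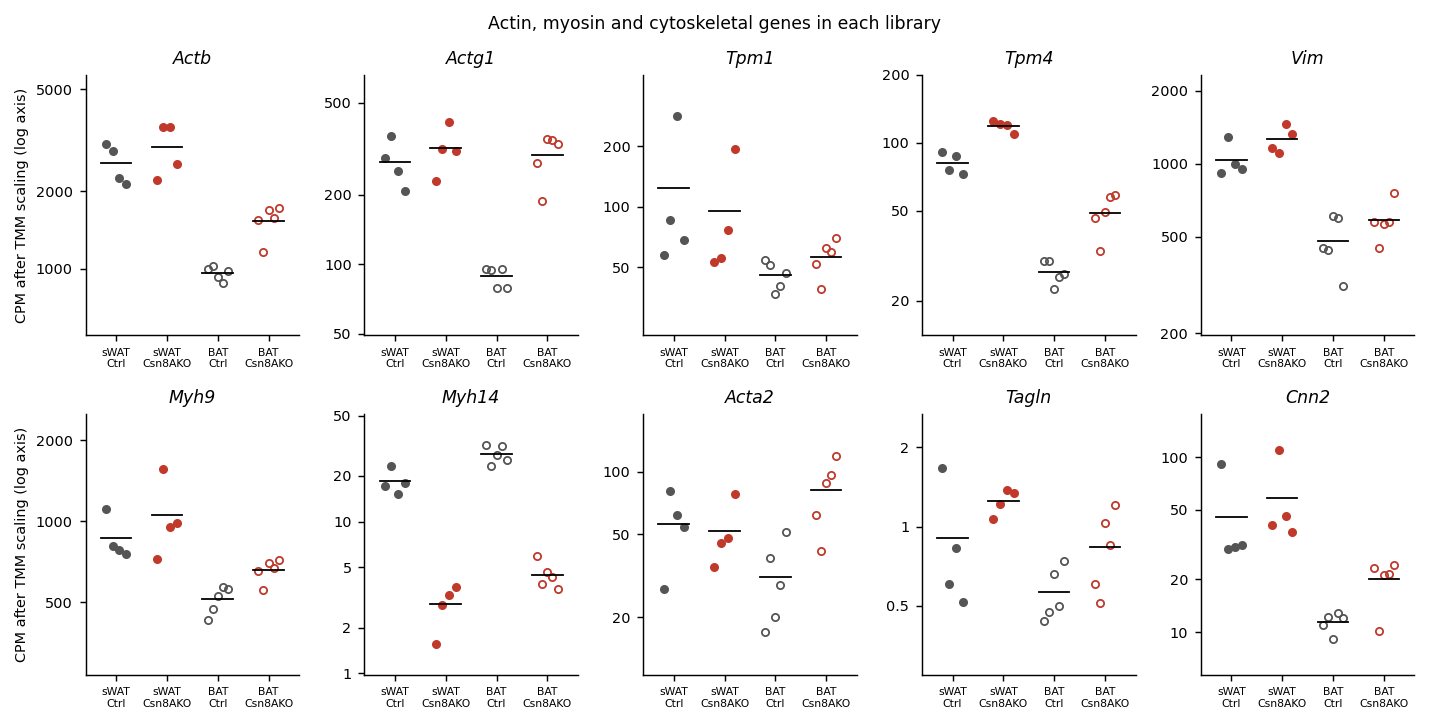
Level of each of the 10 members in each of the 18 libraries, in CPM on log axes, with filled points for sWAT, open points for BAT, grey for Ctrl, red for Csn8AKO and a line at each group mean. Actg1 and Actb are higher in every Csn8AKO BAT library than in every Ctrl BAT library, Myh14 is lower in every Csn8AKO library of both tissues, and Tpm4 is higher in both.

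Csn8AKO BAT replicate 2, the library with the largest share of ribosomal RNA of its tissue, had the lowest level of the 5 for every member but Myh14. Without it the BAT log2 fold changes were 1.87 for Actg1, 0.76 for Actb, 0.98 for Tpm4, 1.55 for Acta2 and 0.97 for Cnn2. Without Csn8AKO replicates 1 and 5, the BAT libraries with the most skeletal muscle marker RNA (123 and 196 CPM against 11.2 to 41.6 CPM), Actg1 was at 1.73, Actb at 0.62, Tpm4 at 0.80 and Myh14 at -2.70 on the log2 scale, while Cnn2 was at 0.63 and Acta2 at 1.28.

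In Ctrl mice 9 of the 10 members had lower mean levels in BAT than in sWAT, although depot and age cannot be told apart in these mice. Of all 22381 genes tested in this comparison 52.7% were called, 25.7% higher and 27.0% lower in BAT. Of the 8 members other than Actg1 and Myh14, 6 were called lower in BAT and none higher. The log2 fold change of BAT against sWAT was -1.94 (SE 0.34, adjusted p = 0.00119) for Cnn2, -1.56 (SE 0.11, adjusted p = 6.72e-08) for Tpm4 and -1.38 (SE 0.14, adjusted p = 2.5e-06) for Actb. It was smaller for Vim at -1.07 (SE 0.19, adjusted p = 0.000407) and Myh9 at -0.70 (SE 0.14, adjusted p = 0.000793), and Tpm1 at -1.39 (SE 0.48, adjusted p = 0.0416) passed although its groups overlapped. The call of Tpm1 was lost with no filter on low counts and with the replicate number as a block. It was also lost when sWAT Ctrl replicate 2 or any 1 of the 5 BAT Ctrl libraries was left out. Acta2 at -0.81 (SE 0.41, adjusted p = 0.134) and Tagln at -0.64 (SE 0.36, adjusted p = 0.161) did not pass. Acta2 was called lower by DESeq2 and with the replicate number as a block. Actg1 at -1.60 (SE 0.15) and Myh14 at 0.64 (SE 0.14) share the Ctrl BAT libraries with the contrast that chose them and are given without a p.

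Per length, in CPM per kilobase scaled over all 18 libraries, the order in Ctrl sWAT was Actb at 934 ± 157, Vim at 213 ± 38.9, Actg1 at 101 ± 24.3, Myh9 at 64.5 ± 10.8, Acta2 at 24.9 ± 10.2, Tpm1 at 18.5 ± 16.0, Tpm4 at 18.5 ± 1.73, Cnn2 at 17.8 ± 11.4, Myh14 at 2.47 ± 0.504 and Tagln at 0.438 ± 0.243 (SD, n = 4). Acta2, Tpm1, Tpm4 and Cnn2 did not differ beyond their spread. In Ctrl BAT Actb was at 371 ± 22.3, Vim at 105 ± 26.7, Myh9 at 41.1 ± 4.58, Actg1 at 34.6 ± 3.54, Acta2 at 14.6 ± 6.61, Tpm1 at 7.32 ± 1.19, Tpm4 at 6.50 ± 0.802, Cnn2 at 4.82 ± 0.609, Myh14 at 3.98 ± 0.538 and Tagln at 0.293 ± 0.0672 (SD, n = 5), where Tpm1 and Tpm4 lay within their spread. In Csn8AKO BAT Actg1 stood at 114 ± 26.0, above Myh9 at 52.0 ± 4.72 and level with Vim at 126 ± 23.1 within their spread, and Myh14 at 0.629 ± 0.123 was next to Tagln at 0.431 ± 0.146 (SD, n = 5). In Csn8AKO sWAT Actg1 was at 115 ± 27.6 per kilobase (SD, n = 4), which overlapped with its level in Csn8AKO BAT on this scale.

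The members were set against 124 other cytoskeletal genes in 11 lists, from other actins and tropomyosins to tubulins. In BAT 70 of the 121 tested rose and 5 fell, with a median log2 fold change of 0.34, where 16.0% of all genes tested were higher and 15.8% lower. In sWAT 6 of the 120 tested rose and 0 fell by edgeR's quasi-likelihood test, with a median of 0.21, where an unadjusted p under 0.05 gave 35 higher and 5 lower and DESeq2 called 19 higher and 3 lower. Of all genes tested in sWAT edgeR called 5.31%, 2.30% higher and 3.00% lower. The unadjusted p gave 9.88% higher and 10.5% lower, and DESeq2 4.84% and 5.49%. The 6 were Capg, Diaph3, Tubb2a, Tubb2b, Tuba1c and Tagln2. Of these calls Capg alone was kept with library size alone and without Ctrl replicate 3, Ctrl replicate 4 or Csn8AKO replicate 3. Capg and Tagln2 were kept without the muscle-rich libraries, and Capg, Tagln2 and Tubb2a without Ctrl replicate 2 or Csn8AKO replicate 1. Diaph3 and Tubb2b were also lost without Ctrl replicate 1 and Tuba1c without Csn8AKO replicate 2. These 6 were all among the 70 called higher in BAT, 8.57% of that BAT list. Since 70 of the 121 tested in BAT were called higher, and the overlap over all genes was not computed, nothing is read from this. Of 122 genes, 4 differed between the tissues in their genotype change by the interaction test, each with a positive difference of BAT minus sWAT. Of all 22509 genes 2.36% were called, 1.61% higher and 0.755% lower. The sWAT mice were older than the BAT mice, so the interaction test cannot tell tissue from age. At an unadjusted p under 0.05 the interaction was positive for 26 and negative for 4, and DESeq2 called 8 and 0, against 8.65% and 6.62% of all genes at the unadjusted p and 3.27% and 1.58% by DESeq2.

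**Figure D5:**
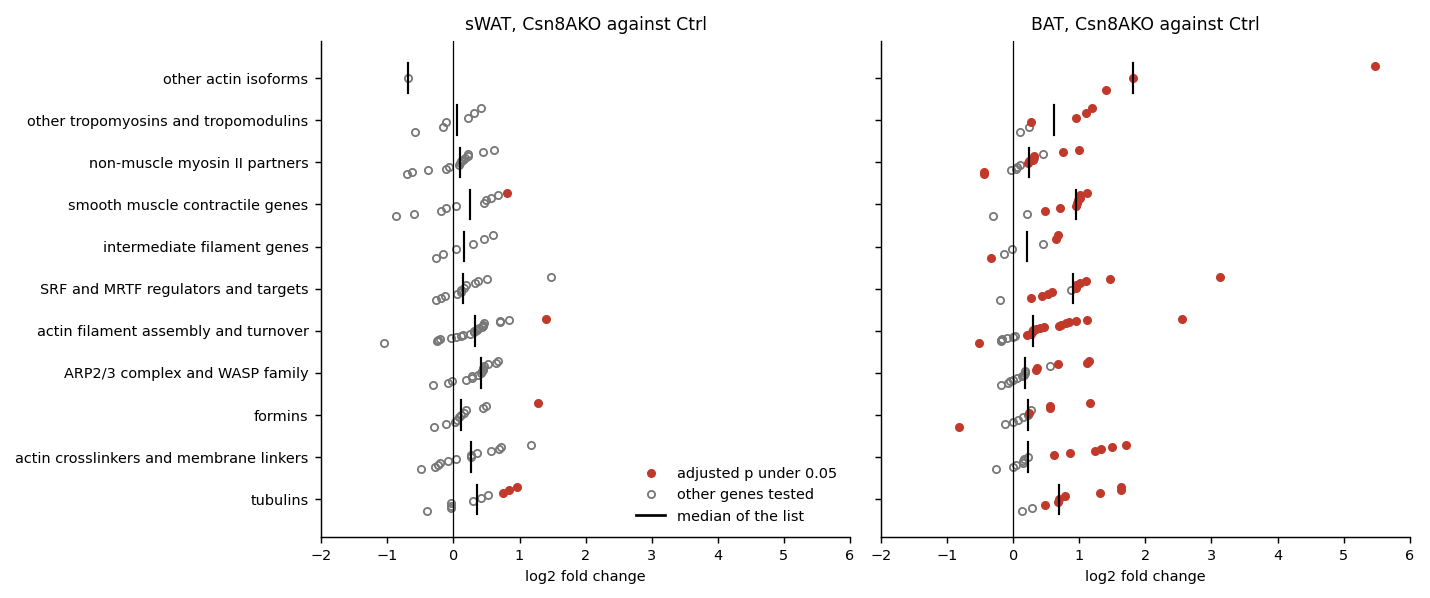
Log2 fold change, Csn8AKO against Ctrl, of each other cytoskeletal gene by list in sWAT and BAT, filled red where the adjusted p was under 0.05, with a tick at the median of the list. In BAT 70 genes are called higher and 5 lower, in sWAT 6 higher and 0 lower.

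The other actins, all muscle forms, were called higher in BAT in 3 of 3 cases, from low levels. Actg2, gamma-actin of smooth muscle, rose in BAT from 0.414, 0.525, 0.678, 0.406 and 0.829 CPM to 1.33, 1.10, 2.37, 2.45 and 2.84 CPM without overlap (log2 fold change 1.81, SE 0.30, adjusted p = 0.000389). Acta1, the skeletal muscle alpha-actin, had the largest fitted value, 5.48 (SE 1.59, adjusted p = 0.0306), but stood at 27.1 and 52.6 CPM in Csn8AKO replicates 1 and 5 and at no more than 0.848 CPM in the other 8 BAT libraries. Those are the libraries rich in skeletal muscle markers. In sWAT Acta1 ranged from 27.2 to 607 CPM, highest in Ctrl replicate 3 and Csn8AKO replicate 4, with a log2 fold change of -0.68 (SE 1.11, adjusted p = 0.794).

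Among the other tropomyosins and tropomodulins 4 of 6 rose in BAT, with a median log2 fold change of 0.61, and 0 of 6 were called in sWAT, 0 also at an unadjusted p under 0.05 and by DESeq2. Tpm2, the tropomyosin of smooth and slow muscle, rose in BAT from 10.5 ± 3.10 to 22.6 ± 7.96 CPM (SD, n = 5 each), a log2 fold change of 1.11 (SE 0.27, adjusted p = 0.00956), with the highest values in the muscle-rich replicates 1 and 5. Tpm3 rose by 0.27 (SE 0.08, adjusted p = 0.0165), and Lmod1, leiomodin of smooth muscle, by 1.20 (SE 0.28, adjusted p = 0.00589). Among the partners of non-muscle myosin II 6 of 14 rose and 2 fell in BAT, and 0 of 14 were called in sWAT by edgeR, against 2 at an unadjusted p under 0.05 and 1 by DESeq2. The regulatory light chain Myl9 rose by 1.00 (SE 0.18, adjusted p = 0.00104) and the light chain kinase Mylk by 0.76 (SE 0.15, adjusted p = 0.00174), while Ppp1cb, the catalytic subunit of the phosphatase that reverses the kinase, fell by 0.44 (SE 0.11, adjusted p = 0.00638), as did Myh10.

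The list of smooth muscle contractile genes, which also holds genes of non-muscle cells such as Tagln2, rose in BAT in 8 of 10 cases, with a median log2 fold change of 0.96. In sWAT 1 of 10 was called by edgeR, against 4 higher and 1 lower at an unadjusted p under 0.05 and 3 higher and 1 lower by DESeq2, and 1 of 10 was called for the interaction. Myh11, the smooth muscle myosin heavy chain, rose in BAT from 44.8 ± 15.8 to 87.9 ± 22.9 CPM (SD, n = 5 each), a log2 fold change of 0.97 (SE 0.26, adjusted p = 0.0175), and Cnn1 by 0.95 (SE 0.25, adjusted p = 0.0103). Cald1, caldesmon, rose from 35.3 ± 5.71 to 71.5 ± 12.9 CPM (SD, n = 5 each), by 1.02 (SE 0.14, adjusted p = 8.53e-05). Tagln2, the transgelin of non-muscle cells, was the gene of this list that was called in both tissues, in sWAT with the losses given above. It rose in sWAT from 82.1, 75.9, 65.8 and 71.3 CPM to 129, 142, 144 and 101 CPM (log2 fold change 0.81, SE 0.15, adjusted p = 0.0143). In BAT it rose from 26.6, 23.2, 25.3, 25.5 and 25.1 CPM to 52.9, 32.4, 54.0, 50.1 and 63.0 CPM (1.01, SE 0.13, adjusted p = 9.06e-05), without overlap in either. Des, the intermediate filament of muscle, was not called in BAT (-0.30, SE 0.18, adjusted p = 0.232) or sWAT (-0.11, SE 0.54, adjusted p = 0.935).

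Of the regulators and targets of SRF and MRTF, 10 of 12 rose in BAT, with a median log2 fold change of 0.91, and 0 of 12 were called in sWAT by edgeR, against 3 at an unadjusted p under 0.05 and 3 by DESeq2, all higher. For the interaction 1 of the 12 was called. Srf itself rose in BAT from 28.4 ± 2.40 to 42.8 ± 4.00 CPM (SD, n = 5 each), a log2 fold change of 0.59 (SE 0.09, adjusted p = 0.000152), and was at 36.7 ± 10.1 and 33.6 ± 8.50 CPM in Ctrl and Csn8AKO sWAT (SD, n = 4 each, adjusted p = 0.818). The coactivator Mrtfa rose by 0.44 in BAT (SE 0.09, adjusted p = 0.00139), while Mrtfb was at -0.20 (SE 0.09, adjusted p = 0.129). Fhl1, a LIM protein, rose in BAT from 66.8 ± 9.38 to 185 ± 40.7 CPM (SD, n = 5 each, adjusted p = 8.51e-06). Its log2 fold change was 1.47 in BAT and 0.19 in sWAT. This difference, in which tissue and age cannot be told apart, passed the interaction test (1.26, adjusted p = 0.0356). The interaction call of Fhl1 was lost with no filter, without the muscle-rich libraries, and when sWAT Ctrl replicate 2, 3 or 4, sWAT Csn8AKO replicate 3, BAT Ctrl replicate 1, 2 or 5 or BAT Csn8AKO replicate 4 or 5 was left out. Fos, an immediate early gene, had the largest log2 fold change of this list in BAT, 3.12 (SE 0.94, adjusted p = 0.0341), with overlapping groups of 1.24 to 5.95 CPM in Ctrl libraries and 1.89 to 59.0 CPM in Csn8AKO libraries. Adipocytes, vessels and fibroblasts all express SRF targets, and the cells that carried these changes were not measured.

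In the list of actin filament assembly and turnover 15 of 22 genes rose and 1 fell in BAT, and 1 of 22 was called in sWAT by edgeR, against 8 higher and 1 lower at an unadjusted p under 0.05 and 2 higher and 1 lower by DESeq2. Capg, a capping protein abundant in macrophages, rose in sWAT from 31.5, 31.9, 30.9 and 35.2 CPM to 86.1, 75.0, 121 and 59.2 CPM (log2 fold change 1.40, SE 0.20, adjusted p = 0.00531). In BAT it rose from 3.26, 3.39, 2.52, 2.93 and 3.10 CPM to 21.2, 12.2, 17.0, 17.8 and 21.0 CPM (2.55, SE 0.16, adjusted p = 1.24e-07). Gsn, gelsolin, which severs filaments, went from 10429, 11329.8, 12323 and 14955 CPM in Ctrl sWAT to 7445, 3495, 6946 and 5763 CPM in Csn8AKO sWAT, a log2 fold change of -1.05 (SE 0.30, adjusted p = 0.0743) that did not pass the test although the groups did not overlap. In BAT Gsn rose from 887, 900.3, 788, 914 and 914 CPM to 1367, 1039, 1578, 1285 and 1967 CPM (0.72, SE 0.15, adjusted p = 0.00198). The interaction was 1.75 (adjusted p = 0.0047), a call lost without the muscle-rich libraries, as was that of Capg. Cofilin (Cfl1), profilin (Pfn1) and thymosin beta-4 (Tmsb4x), which recycle or hold actin monomers, rose in BAT by 0.34 (adjusted p = 0.0032), 0.47 (adjusted p = 0.00437) and 0.31 (adjusted p = 0.0228), and in sWAT were at 0.36 (adjusted p = 0.238), 0.39 (adjusted p = 0.43) and 0.84 (adjusted p = 0.0708). Pfn2 fell in BAT by 0.52 (SE 0.14, adjusted p = 0.0125).

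Of the ARP2/3 complex and WASP family 5 of 15 rose in BAT and 0 of 15 were called in sWAT by edgeR (7 higher at an unadjusted p under 0.05, 3 by DESeq2), with the leukocyte gene Was at 1.12 (SE 0.16, adjusted p = 0.000129) and Wipf1 at 0.67 (SE 0.11, adjusted p = 0.000441) in BAT. Of the formins 4 of 11 rose and 1 fell in BAT and 1 of 11 rose in sWAT. Of the crosslinkers and membrane linkers 6 of 13 rose in BAT and 0 of 13 were called in sWAT by edgeR (4 higher and 1 lower at an unadjusted p under 0.05, 1 and 1 by DESeq2), led by Lcp1, the leukocyte plastin, at 1.71 (SE 0.16, adjusted p = 4.73e-06) and Flnc, filamin C, at 1.49 (SE 0.21, adjusted p = 0.00021). Macrophage markers also rose in sWAT (6 of 9 called, 765 to 1067 CPM in Ctrl libraries and 1207 to 2123 CPM in Csn8AKO libraries). Capg was called higher in both tissues, whereas Was and Lcp1 were called in BAT and not in sWAT. The part of macrophages in these changes was not tested. Of the intermediate filament genes 2 of 6 tested rose and 1 fell in BAT, with Lmna, the nuclear lamin A, at 0.68 (SE 0.14, adjusted p = 0.00249), Nes, nestin, at 0.65 (SE 0.15, adjusted p = 0.00558) and Synm, synemin, at -0.33 (SE 0.10, adjusted p = 0.0206). In sWAT 0 of these 6 were called by edgeR or DESeq2, and 2 were higher at an unadjusted p under 0.05.

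The tubulins, the building blocks of microtubules and not of actin filaments, rose in 7 of 9 cases in BAT, with a median log2 fold change of 0.70, and in 3 of 10 in sWAT. Tubb2a rose in sWAT from 25.7, 28.6, 22.6 and 23.5 CPM to 42.9, 36.6, 49.0 and 40.3 CPM (0.75, SE 0.14, adjusted p = 0.0139). In BAT it rose from 8.25, 10.5, 10.4, 12.1 and 12.2 CPM to 18.0, 14.3, 54.4, 36.0 and 44.0 CPM (1.64, SE 0.35, adjusted p = 0.006). Tubb2b rose by 0.96 in sWAT (adjusted p = 0.0292) and 1.63 in BAT (adjusted p = 0.000115), and Tuba1c by 0.84 (adjusted p = 0.0457) and 1.31 (adjusted p = 6.64e-05). Each of these sWAT calls was lost under the left-out libraries named above. Tubulin genes are close copies of each other, so part of their reads may not have been placed uniquely.

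The genes whose levels were most like those of Actg1 and Myh14 over the 18 libraries were sought among 13728 genes by Pearson's r of log2(CPM + 0.5), which mixes tissue, age and genotype and is given without a p. For Actg1 they were Actg-ps1 (r = 0.947), a pseudogene copy, Zmat3 (0.934), an RNA-binding zinc finger protein, and Mgat5 (0.930), a glycosyltransferase. Actg-ps1 was not among the genes named as sharing windows of 150 bases with Actg1, and whether it took reads of Actg1 was not tested. Zmat3 was at 37.5 and 49.3 CPM in Ctrl and Csn8AKO sWAT, and at 20.2 and 39.2 CPM in Ctrl and Csn8AKO BAT. For Myh14 they were Arhgef40 (0.952), Zdhhc2 (0.952), a palmitoyltransferase, and Popdc2 (0.951), a membrane protein that binds cyclic AMP. Popdc2 was at 8.61 and 2.26 CPM in Ctrl and Csn8AKO sWAT, and at 15.0 and 3.63 CPM in Ctrl and Csn8AKO BAT. Over the same libraries the members themselves were correlated most closely for Actb and Tpm4 (0.948), while Actg1 and Myh14 were at -0.705 and Acta2 and Cnn2 at 0.158.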

How the data were processed

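Total RNA of 18 libraries was depleted of ribosomal RNA by the authors, read as pairs of 150 bases, aligned to GRCm38 with STAR, and counted per gene with featureCounts from uniquely aligned, unambiguous reads. A strand setting is not given in the sources used here. For each library the authors deposited raw counts of 55487 genes together with CPM, FPKM and TPM made from them. The deposited CPM, FPKM and TPM were checked against the counts and not used further. Symbols were found for 55141 gene IDs, and coordinates are GRCm38. From the deposited counts genotypes were compared within each tissue in edgeR 4.0.16 (R 4.3.3). TMM scaling and filterByExpr (minimum count 10, minimum total 15) preceded a robust quasi-likelihood test, whose p-values were adjusted by Benjamini-Hochberg over all genes tested and called at 0.05. Depots were compared over the 9 Ctrl libraries, and all 18 entered the test of genotype by tissue. Errors of log2 fold changes are standard errors. The members and lists were chosen with earlier results of these data known.

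All 10 members were named with every library, and of other genes up to 2 called per direction, list and tissue by size of change where the average log2 CPM reached 1, and Myh10, Tpm2, Tpm3, Acta1, Actg2, Myh11, Cnn1, Des, Srf, Mrtfa, Mrtfb, Cfl1, Pfn1 and Tmsb4x in any case. Genes outside this rule, the 4 of the interaction and the 6 called in sWAT among them, were named after their values were seen. Alternatives were other scaling, other filters, DESeq2 1.42.0, all libraries in one fit, the replicate number as a term and each library left out in turn. Fits without ribosomal RNA genes, without libraries rich in skeletal muscle or lymphocyte markers and without the shallower Csn8AKO BAT libraries were added after the data were seen. No pair of libraries agreed within sampling noise, and the fits were tested on simulated data. Python 3.11.15 with matplotlib 3.10.9, pandas 2.3.3 and numpy 2.4.6 gave the tables and figures.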

Additional observations from a re-analysis of the deposited data

Results flagged for a closer look

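6 of the 40 groups of a member held 1 library far from the others by Dixon's test at 95%, where chance gives about 5% of groups. Tpm1 was at 284 CPM in sWAT Ctrl replicate 3 against 57.2 to 86.3 CPM in the others, and at 195 CPM in sWAT Csn8AKO replicate 4 against 53.0 to 76.2 CPM, the libraries with the most skeletal muscle marker RNA of their groups. Cnn2 was at 91.3 CPM in sWAT Ctrl replicate 1 against 29.7 to 31.4 CPM and at 110.3 CPM in sWAT Csn8AKO replicate 2 against 37.1 to 45.9 CPM, and Myh9 was at 1108 CPM in that Ctrl library against 758 to 810.1 CPM, where B and T cell markers were highest. Cnn2 was at 10.1 CPM in BAT Csn8AKO replicate 2 against 21.2 to 24.1 CPM, the BAT library with the largest share of ribosomal RNA.

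4 other cytoskeletal genes differed in their genotype change between sWAT and BAT by the interaction test of edgeR. The BAT mice were younger than the sWAT mice, so depot and age cannot be told apart in this test either. Gsn differed by 1.75 on the log2 scale (adjusted p = 0.0047), from -1.05 in sWAT and 0.72 in BAT. Synpo2, synaptopodin 2, which links actin to the Z-disc and to stress fibres, differed by 1.29 (adjusted p = 0.0112), from -0.59 in sWAT and 0.71 in BAT. Fhl1 differed by 1.26 (adjusted p = 0.0356) and Capg by 1.14 (adjusted p = 0.0161), and both had positive log2 fold changes in both tissues.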

How the results depend on the processing

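Myh14 in sWAT was called under every alternative run, with log2 fold changes from -2.95 to -2.50, while Tpm4 in sWAT ranged in adjusted p from 0.00045 (DESeq2) to 0.796 (library size alone). The 2 members called in sWAT became 1 with library size alone, with no filter on low counts and without the muscle-rich libraries, and 1 to 2 with a library left out. The counts of members in BAT and between depots are a description only, because the BAT values chose Actg1 and Myh14, which these counts include. The 7 members past the threshold in BAT became 4 without the muscle-rich libraries and 5 with all 18 libraries in one fit. They became 5 without the shallower Csn8AKO libraries and 6 to 8 with a library left out. The 8 between depots became 7 to 8 with a library left out, 7 with no filter on low counts and 9 with DESeq2. Over all genes the BAT calls also moved, from 3585 higher and 3536 lower to 2560 and 2743 without the muscle-rich libraries. They were 2583 and 2677 in the one fit and 2619 and 2446 without the shallower libraries. The 6 other cytoskeletal genes called in sWAT became 2 with library size alone (1 higher and 1 lower), 22 with DESeq2 and 22 with all 18 libraries in one fit, 19 without the lymphocyte-rich libraries, 2 without the muscle-rich ones and 1 to 9 with a library left out. Over all genes the sWAT calls went from 434 higher and 566 lower to 912 and 1034 with DESeq2 and 1044 and 1419 in the one fit. They were 993 and 827 without the lymphocyte-rich libraries and 154 and 231 without the muscle-rich ones. The 75 in BAT became 49 with all 18 libraries in one fit, 54 without the muscle-rich libraries, 61 without the shallower Csn8AKO libraries and 65 to 86 with a library left out. The 4 of the interaction became 8 with DESeq2, 7 without the lymphocyte-rich libraries, 1 without the muscle-rich ones and 3 to 8 with a library left out. Over all genes the interaction calls went from 362 higher and 170 lower to 737 and 355 with DESeq2. They were 464 and 276 without the lymphocyte-rich libraries and 169 and 44 without the muscle-rich ones. Signs turned in sWAT for Tpm1 (0.42 without Ctrl replicate 3), Acta2 (0.10 without Ctrl replicate 2, 0.03 without Csn8AKO replicate 1) and Cnn2 (-0.15 without Csn8AKO replicate 2), whose ranges with a library left out were -1.02 to 0.42, -0.40 to 0.10 and -0.15 to 0.94. The cause was not tested. Scaling by library size alone moved the median log2 fold change of all genes in BAT from 0.006 to 0.14 and the calls there from 3585 higher and 3536 lower to 4183 and 2087, and in sWAT from 434 and 566 to 106 and 328.

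The main fits did not pair the samples by replicate number. Same-numbered mice correlated at -0.387 to 0.223 in sWAT and -0.098 to 0.101 in BAT. In BAT replicates 1 and 5 this correlation (0.101 and 0.091) was above the highest with another number (0.042 and 0.077), and in every other case it was below. Low correlations cannot exclude shared litters or batches, so pairing was not settled. With the replicate number as a block the counts of genes called were 1 member (Myh14) and 1 other gene (Capg) in sWAT, 69 other genes in BAT and 1 (Gsn) for the interaction.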
